A study of Sus scrofa with 10 samples.

Results

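Nuclear pore and nuclear transport genes were examined in porcine fetal fibroblasts that had been divided by a surface carbohydrate. The members were chosen by name: every gene whose symbol in the platform annotation marks it as a nucleoporin, karyopherin, Ran cycle protein or mRNA export factor, 37 of the 6765 genes that could be read through a single symbol. Where a gene had several probe sets, the one whose signal averaged highest across the 10 arrays stood for it, and that average is the only measured value in the choice. The group was proposed with results of the same arrays already known, so its counts describe these samples and carry no independent weight. RCC1, NDC1, POM121 and SEH1L, which the naming rule also covers, were not analysed here, nor was THOC6, whose probe set is shared with another gene.

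The cells were fibroblasts grown from tissue of day 24 fetuses with the head removed, from Danish Landrace/Yorkshire x Duroc crosses, cultured on gelatin in serum-containing medium. Both groups share this origin and culture. Magnetic sorting for SSEA-1, a sugar epitope also called Lewis X, gave a positive and a negative fraction, and RNA from 5 fractions of each kind was hybridised to 1 Affymetrix porcine array per fraction. The labels call the 5 sorts biological replicates without saying whether each began from a separate animal or culture. The p-values therefore set each difference against the spread between these samples, which may not be the spread between animals.

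Nuclear pores are ring-shaped assemblies that pierce the nuclear envelope, built from stacked scaffold rings, a membrane anchor, a channel lined with flexible repeats, cytoplasmic filaments and a nuclear basket. Karyopherins carry proteins and some RNAs through the channel, with importins loading in the cytoplasm and exportins in the nucleus. The GTPase RAN is held in its GTP form inside the nucleus and hydrolyses its bound GTP outside it. This sets the direction, while most mRNA leaves through the NXF1 and NXT1 receptor. Pores are taken apart and rebuilt when mammalian cells divide.

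All 8 measured fibroblast markers of 10 listed, among them VIM, DCN and PDGFRB, lay above the background signal of 0.352 on all 10 arrays. COL1A2 alone rose among them, where 3.21% of all genes did. Of the 8, 3 read lower, beside 51.0% of all genes, and the median difference was 0.04. The mean of the 8 was higher in the positive fraction in 5 of 5 pairs, at 7.07 to 7.32 against 6.94 to 7.21. The part of this in the results below was not tested. That background is the level under which 95% of the signals of 23 absent-sequence controls fell. The endothelial genes CDH5 and TEK and the blood cell genes PTPRC and SPI1 lay at or under it on all arrays. Other markers of those and further cell types were above it on all arrays, among them PECAM1, VWF, HBB, KRT8, KRT18, KRT19, SOX10 and DES. The endothelial, blood, epithelial, neural, muscle and pluripotency lists had 5, 4, 6, 3, 4 and 2 measured genes. None of these passed the test between fractions, beside 7.39% of all genes. Of the 2 pluripotency genes, 0 lay above background on all arrays. Lists this short cannot show that the fractions held the same cell types in equal parts. Between 69.4% and 72.7% of the probe sets were above background on an array. The number of arrays, 5 in each fraction, limits the precision of the values below, and in bulk RNA fewer cells of a type and less RNA per cell cannot be told apart.

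Most nucleoporins read slightly lower in the SSEA-1 positive fraction, while the carriers were divided in direction. In limma, with p-values adjusted by Benjamini-Hochberg over all 24123 probe sets and a threshold of 0.05, 3 of the 37 genes fell, namely the basket protein TPR, the mRNA export receptor NXF1 and the tRNA exportin XPOT. The importin alpha KPNA3 rose. The arrays of the fractions did not overlap for KPNA3, which was higher, and for TPR, XPOT and RANBP3, which were lower, as was so for 3.96% and 4.55% of all genes in these directions. The 4 called genes are 10.8% of the 37, beside 7.39% of all 6765 genes, with 4.18% lower and 3.21% higher. With the replicate number as a block, 12 members were called, 10 lower and 2 higher, or 32.4% of the 37 beside 14.3% of all genes, of which 8.62% were lower and 5.65% higher.

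The differences were small throughout. The median over the 37 genes was -0.16 on the log2 scale against -0.01 over all 6765 genes, and the member furthest from 0 differed by -0.63. In all, 25 members read lower, 9 higher and 3 at 0.00, and 67.6% reading lower compares with 51.0% of all genes. Within replicate numbers 1 to 5 the median of the members was -0.11, -0.05, -0.02, -0.20 and -0.24. The positive value was below the negative one in 5 of 5 pairs for 14 members, or 37.8%, beside 16.4% of all genes, and above it in 5 of 5 pairs for 4 members, or 10.8%, beside 12.6% of all genes.

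**Figure D1:**
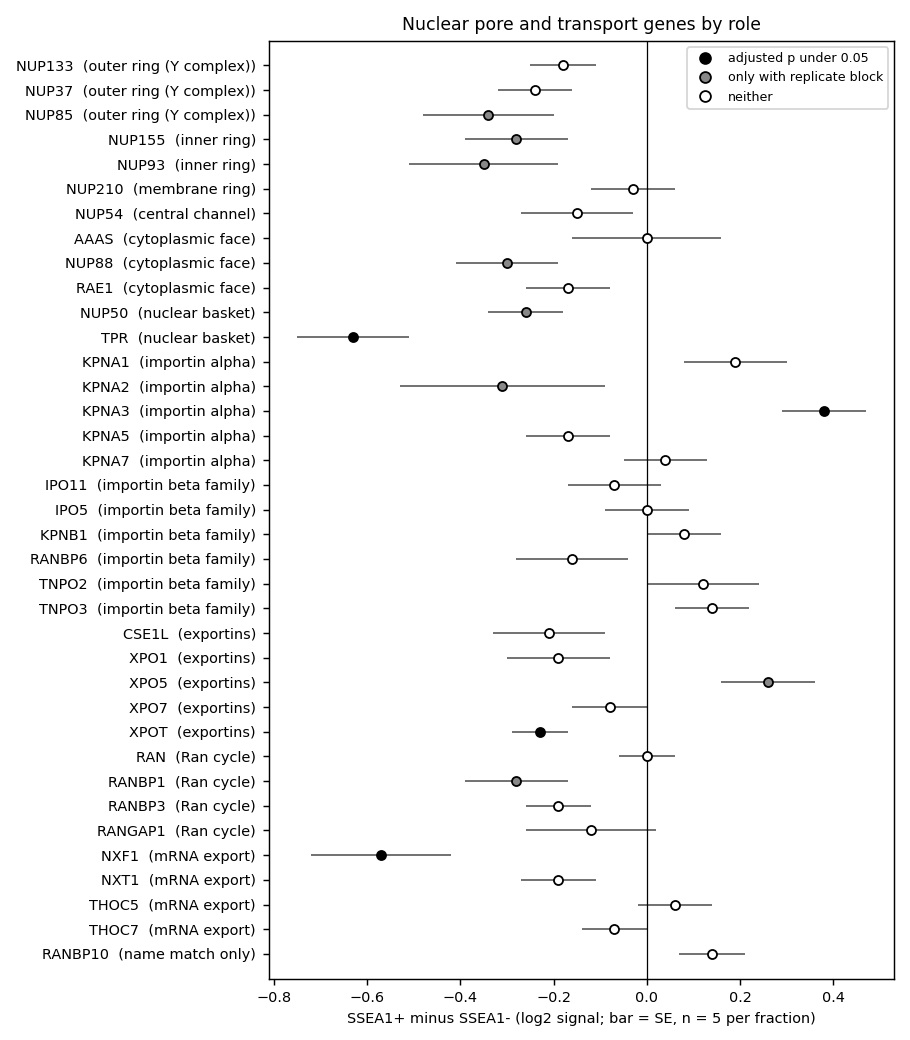
The plot of differences by role shows, for each of the 37 genes, the mean log2 signal of the SSEA-1 positive fraction minus that of the negative fraction, with bars of 1 standard error (n = 5 per fraction). Black points passed at an adjusted p under 0.05 in limma, grey points passed only with the replicate number as a block, and the nucleoporins at the top lie at or left of 0 while the importins lie on both sides.

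The count of called members depended on single arrays. It was 1 without SSEA-1 positive replicate 1 or 5 or without negative replicate 1, 3, 4 or 5, then 2 without positive replicate 2 or 3, and 9 without negative replicate 2. Leaving out both arrays of replicate 1, 3 or 5 left 0 calls in limma, with 12, 8 and 8 members at an unadjusted p under 0.05. Calls and unadjusted p-values over all genes were not counted in the leave-outs, here or below. These counts therefore cannot show whether the members depended on single arrays more than other genes did.

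2 further measures moved with the fractions. Poly-A control transcripts, which are added to the RNA before labelling, were read relative to the hybridisation controls, and this value ran from -3.45 to -2.66 on the positive arrays and from -4.32 to -3.81 on the negative ones, so the fractions did not overlap, with a mean difference of 0.82 on the log2 scale. With that value as a covariate 0 of the 37 genes passed in limma, beside 0.0887% of all genes, of which 0.0591% were higher and 0.0296% lower. Of the 37, 10 reached an unadjusted p under 0.05 there. With the covariate and the replicate block together 0 passed, and 5 reached that unadjusted level in limma. Since the 2 fractions did not share any poly-A level, this fit extrapolates. Over all genes, unadjusted p-values were not counted with the covariate, nor calls with covariate and block together. The mean of 20 measured G2 and M phase genes, of 35 listed, ran from 3.53 to 4.63 on the positive arrays. On the negative ones it ran from 3.94 to 5.49, and the positive array was lower in 5 of 5 pairs. The median difference of the 20 genes was -0.63, beside -0.01 over all genes. Of these genes, 20 of 20 read lower in the positive fraction, beside 51.0% of all genes, and 3 fell, beside 4.18%. The part of either measure in the differences of the transport genes was not tested.

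Of the 12 measured nucleoporins, TPR fell and 11 did not pass, beside 4.18% of all genes lower. With the replicate block 6 of the 12 fell, beside 8.62% of all genes lower there. The nucleoporins had a median difference of -0.25, with 11 reading lower and AAAS at 0.00, beside 51.0% of all genes reading lower. In 5 of 5 pairs 8 of the 12 were lower, beside 16.4% of all genes. Between 10 and 12 of them read lower under each scaling, filter, covariate and leave-out that was run. The number that fell was 5 without negative replicate 2, 2 without positive replicate 4 or without both arrays of replicate 2, and 0 without both arrays of replicate 1, 3 or 5, where 6, 4 and 4 had an unadjusted p under 0.05 in limma.

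The outer ring is formed by the Y-shaped scaffold complex, of which NUP133, NUP37 and NUP85 were measured. NUP133, a membrane-curvature-sensing arm of that complex, read 5.37, 5.22, 5.23, 5.32 and 5.27 on positive replicates 1 to 5. On the negative arrays it read 5.45, 5.29, 5.51, 5.56 and 5.51. The positive values were the lower ones in each pair and overlapped the negative range only through negative replicate 2. The difference of -0.18 ± 0.07 (SE) had an adjusted p of 0.153 in limma, and the other 3 NUP133 probe sets read -0.24, -0.16 and -0.11.

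NUP37, a small peripheral subunit of the same complex, read 3.37, 3.59, 3.64, 3.32 and 3.41 in the positive fraction and 3.64, 3.64, 3.66, 3.86 and 3.74 in the negative. Positive replicate 3 reached the level of the lowest negative arrays, so the fractions overlapped. Positive replicate 2 lay just below them and the remaining positive arrays lay further below. Its difference was -0.24 ± 0.08 (SE), with an adjusted p of 0.102. NUP85, which joins the short arm of the Y, read 4.09 ± 0.21 against 4.43 ± 0.30 (SD, n = 5 each). That difference of -0.34 had an adjusted p of 0.192, and of 0.0139 with the replicate block. Its other probe sets differed by -0.42 and -0.40 and were also called with the block, so all of the NUP85 probe sets read lower by similar amounts.

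The inner ring, which holds the channel and ties the scaffold to the membrane, was represented by NUP93 and NUP155. NUP93, the linker at its core, read 4.76, 4.07, 4.73, 4.82 and 4.48 in the positive fraction. On the negative arrays it read 4.95, 4.46, 5.16, 5.12 and 4.92. Replicate 2 was lowest in both fractions, and the pair differences ran only from -0.45 to -0.19 although the fractions overlapped. The difference of -0.35 ± 0.16 (SE) had an adjusted p of 0.228 in limma without the pairing and of 0.00947 with the replicate block.

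NUP155, a structural subunit that contacts the membrane ring, read 5.36, 5.18, 5.46, 5.09 and 5.10 against 5.66, 5.22, 5.74, 5.46 and 5.53. The fractions overlapped, again with the lowest negative value in replicate 2. It differed by -0.28 ± 0.11 (SE), with an adjusted p of 0.148, or 0.0336 with the block, and its other probe set was below background. Without negative replicate 2 NUP155 passed, at -0.36 and an adjusted p of 0.0434.

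NUP210, a membrane-spanning glycoprotein of the pore, was dim, at 0.49, 0.67, 0.66, 0.63 and 0.65 in the positive fraction and 0.94, 0.66, 0.45, 0.65 and 0.56 in the negative. It lay above background on all arrays, and its difference of -0.03 ± 0.09 (SE; adjusted p of 0.900) was within the spread and turned without replicate 1. NUP54, a repeat-bearing protein of the central channel, read 4.84, 4.63, 4.83, 5.07 and 4.64 against 5.03, 4.68, 4.75, 5.12 and 5.20. Its fractions overlapped widely, and the difference of -0.15 ± 0.12 (SE) had an adjusted p of 0.534.

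On the cytoplasmic face, NUP88, which anchors the filament that receives exported cargo, read 4.90, 4.76, 4.97, 5.23 and 4.97 in the positive fraction. The negative arrays gave 5.23, 4.94, 5.40, 5.43 and 5.33. Each pair was lower in the positive fraction, with pair differences from -0.43 to -0.19. The adjusted p of its difference, -0.30 ± 0.11 (SE), was 0.123, and 0.0178 with the replicate block; without negative replicate 2 or positive replicate 4 it passed, at -0.38 and -0.37.

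RAE1, an mRNA export factor that docks at the pore, read 5.00, 4.82, 4.86, 5.26 and 4.92 against 5.11, 5.02, 5.11, 5.18 and 5.29, lower in 4 of 5 pairs. It differed by -0.17 ± 0.09 (SE), with an adjusted p of 0.318. AAAS, the ALADIN protein, read 1.77 ± 0.21 against 1.77 ± 0.39 (SD, n = 5 each), and its second probe set differed by -0.01.

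The nuclear basket held the largest difference among the 37 genes. TPR, the coiled-coil protein that forms the basket's filaments, read 5.37, 5.57, 5.32, 6.06 and 5.67 on the positive arrays. On the negative arrays it read 6.29, 6.11, 6.31, 6.09 and 6.35. The fractions did not overlap, as was so for 8.51% of all genes, but positive replicate 4 lay only 0.03 below its pair while the other pairs differed by at least 0.54. TPR fell 1.55-fold, by 0.63 ± 0.12 on the log2 scale (SE; adjusted p = 0.0110).

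The call of TPR held without any single array, with values from -0.75 to -0.56, and ended without both arrays of replicate 1, 3 or 5, at adjusted p-values of 0.0747, 0.0723 and 0.0685. It ended too with the mean over the TPR probe sets, at -0.24 and an adjusted p of 0.304. The remaining TPR probe sets, with means of 1.35 and 0.71 over all arrays, differed by -0.02 and -0.07. With the poly-A covariate the TPR difference was -0.28 ± 0.21 (SE), and adding the replicate block to that fit gave 0.15 ± 0.31 (SE). NUP50, a mobile basket protein that helps release cargo from importin alpha, read 4.11, 3.99, 4.18, 4.16 and 3.95 against 4.32, 4.18, 4.37, 4.51 and 4.33. The positive values lay at or below the lowest negative one, with 1 array touching it. Its difference of -0.26 ± 0.08 (SE) had an adjusted p of 0.0653, and of 0.0299 with the block.

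**Figure D2:**
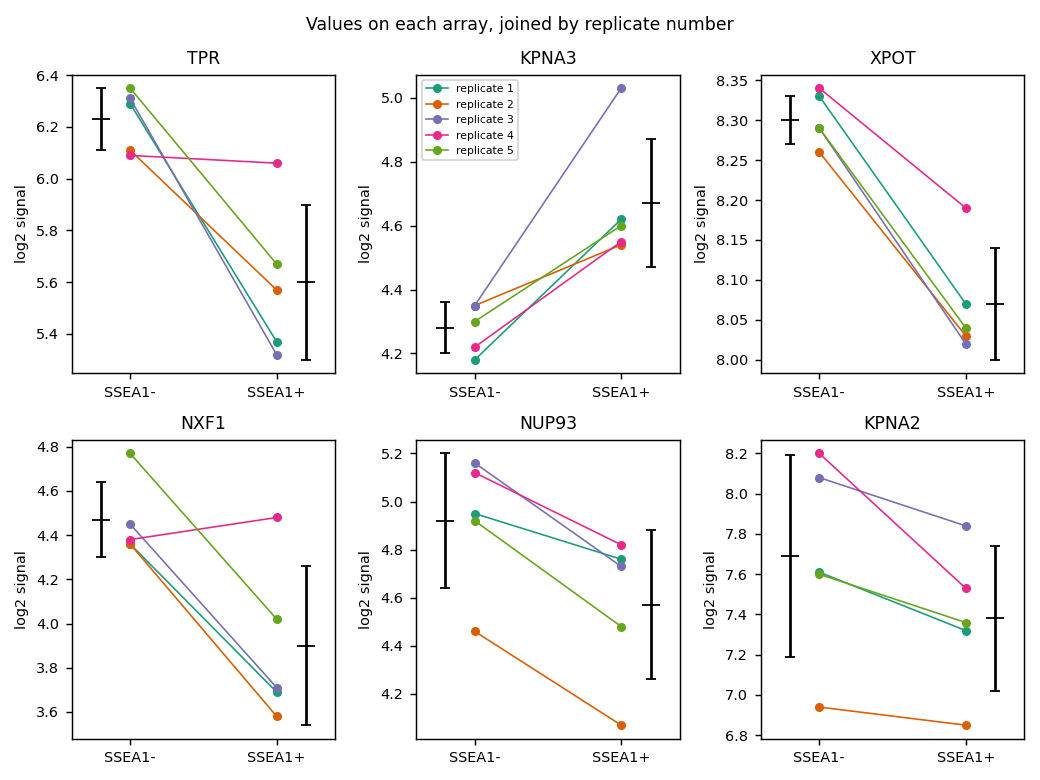
The paired plot shows log2 signals of TPR, KPNA3, XPOT, NXF1, NUP93 and KPNA2 on each array, with lines joining arrays of the same replicate number and side bars for the mean ± SD (n = 5). TPR and NXF1 are low in 4 positive arrays but not in positive replicate 4, whereas NUP93 and KPNA2 are lower in the positive array of each pair, with replicate 2 lowest in both fractions.

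Among carriers, 1 of 16 measured karyopherins rose and 1 fell, beside 3.21% and 4.18% of all genes. Their median difference was -0.04, with 8 reading lower, 7 higher and 1 at 0.00. With the replicate block 2 rose and 2 fell, beside 5.65% and 8.62% of all genes. Importin alpha proteins, the adaptors that recognise classical import signals, differed in direction from each other. KPNA3, the adaptor also called importin alpha 4, read 4.62, 4.54, 5.03, 4.55 and 4.60 on the positive arrays and 4.18, 4.35, 4.35, 4.22 and 4.30 on the negative ones. All positive values exceeded all negative ones, and positive replicate 3 was the highest by a clear margin. KPNA3 rose 1.30-fold, by 0.38 ± 0.09 on the log2 scale (SE; adjusted p = 0.0303).

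A second KPNA3 probe set gave the same direction, reading 2.31, 2.17, 2.55, 2.49 and 2.23 in the positive fraction. Its negative values were 1.68, 1.83, 1.80, 1.78 and 1.87, again with no overlap. It rose by 0.56 ± 0.08 (SE; adjusted p = 0.00232), and the remaining KPNA3 probe set was below background on 9 arrays. On the brighter probe set, positive replicates 1 and 5 and negative replicates 1, 3, 4 and 5 were each needed for the call, which without them ended at adjusted p-values of 0.0551 to 0.0724, while the difference stayed between 0.29, without positive replicate 3, and 0.42. It also ended without both arrays of replicate 1, 3, 4 or 5, at values of 0.31 to 0.41. The poly-A covariate gave 0.13 ± 0.16 on the brighter set and 0.46 ± 0.16 on the second (SE).

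KPNA2, an importin alpha with high expression in dividing cells, varied most between replicate numbers. It read 7.32, 6.85, 7.84, 7.53 and 7.36 in the positive fraction and 7.61, 6.94, 8.08, 8.20 and 7.60 in the negative. In both fractions replicate 2 was lowest, and negative replicates 3 and 4 were the highest negative arrays. The G2 and M phase mean, at 4.70, 3.94, 5.34, 5.49 and 4.91 on the negative arrays, had the same lowest and highest arrays there. The difference of -0.31 ± 0.22 (SE) had an adjusted p of 0.504 without the pairing and of 0.0467 with the replicate block. On the second probe set it was -0.55, with 0.174 and 0.00584.

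KPNA1 read 6.51 ± 0.26 against 6.32 ± 0.09 (SD, n = 5 each), at an adjusted p of 0.402, and its next brightest probe set had a difference of -0.02. KPNA5 was near background, at 0.03, 0.10, 0.01, 0.42 and 0.09 against 0.29, 0.20, 0.24, 0.35 and 0.42, and exceeded it on 2 arrays. KPNA7, an importin alpha of oocytes and early embryos, was above background on 0 arrays. The differences of KPNA5 and KPNA7, -0.17 and 0.04, therefore lie where the array has no firm signal. The other 35 members were above background on all 10 arrays.

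Importin beta family members, which bind cargo or importin alpha and cross the channel, gave no call. KPNB1, the main import carrier, read 8.50 ± 0.13 against 8.42 ± 0.07, and IPO5, an importer of ribosomal proteins and histones, read 6.45 ± 0.19 against 6.45 ± 0.07 (SD, n = 5 each). TNPO3, the importer of SR splicing factors, read 5.59, 5.30, 5.58, 5.52 and 5.37 against 5.42, 5.14, 5.42, 5.36 and 5.31. It was higher in 5 of 5 pairs by 0.06 to 0.17, and its difference of 0.14 ± 0.08 (SE) had an adjusted p of 0.384. TNPO2 and IPO11 differed by 0.12 and -0.07.

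RANBP6, a relative of IPO5, read 5.38, 5.37, 5.51, 4.78 and 5.23 against 5.56, 5.27, 5.39, 5.51 and 5.35, with positive replicate 4 far below the remaining arrays. The difference of -0.16 ± 0.12 (SE) had an adjusted p of 0.512. Its second probe set read 2.80, 3.28, 3.03, 2.87 and 2.72 in the positive fraction and 3.52, 3.40, 3.55, 3.59 and 3.31 in the negative. There the fractions did not overlap and RANBP6 fell by 0.53 ± 0.10 (SE; adjusted p = 0.0105), so its probe sets gave different answers.

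Of the 5 exportins, XPOT, the carrier of mature tRNA, fell. It read 8.07, 8.03, 8.02, 8.19 and 8.04 on the positive arrays and 8.33, 8.26, 8.29, 8.34 and 8.29 on the negative ones. The fractions did not overlap, and the arrays of each lay close together. The fall of 0.23 ± 0.06 on the log2 scale (SE; adjusted p = 0.0430), or 1.18-fold, was the smallest of the called differences. Its second probe set read higher, at 4.17 ± 0.29 against 4.01 ± 0.05 (SD, n = 5 each), without passing.

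The call of XPOT was lost in 8 of 10 single-array leave-outs, at adjusted p-values of 0.0797 to 0.0931, and held without positive replicate 4 and without negative replicate 2. Without both arrays of replicate 1, 2, 3 or 5 it also ended. Over all leave-outs the value stayed between -0.26 and -0.22. Centring on the median and cyclic loess ended it at 0.0513 and 0.0527, and the mean of both probe sets was -0.04.

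XPO5, which exports microRNA precursors, read 5.50, 5.11, 5.55, 5.45 and 5.37 against 5.37, 5.03, 5.20, 5.04 and 5.06. It was higher in 5 of 5 pairs, and the difference of 0.26 ± 0.10 (SE) had an adjusted p of 0.149, or 0.0495 with the block. With the poly-A covariate it read -0.01 ± 0.17 (SE). CSE1L, which returns importin alpha to the cytoplasm, read 6.81 ± 0.17 against 7.02 ± 0.24 (SD, n = 5 each) and was lower in 5 of 5 pairs without passing with or without the block. XPO1, the exporter of most protein cargo, differed by -0.19 at an adjusted p of 0.393.

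XPO7, an exportin of broad specificity, had a difference of -0.08 on its brightest probe set (adjusted p of 0.679 in limma). The second probe set read 4.78, 4.69, 4.78, 4.83 and 4.95 in the positive fraction and 4.41, 4.17, 4.30, 4.45 and 4.40 in the negative. All 5 positive values lay above all 5 negative ones, and it rose by 0.46 ± 0.08 (SE; adjusted p = 0.00441). With the poly-A covariate this probe set read 0.44 ± 0.15 (SE). The XPO7 probe sets therefore disagreed on whether the gene differed between the fractions.

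RAN itself, the GTPase that powers the cycle, was steady on its brightest probe set, at 9.97, 9.93, 9.99, 10.02 and 9.98 against 9.97, 9.92, 9.91, 10.04 and 10.04. The difference of 0.00 ± 0.06 (SE) was within the spread. Of 9 probe sets named RAN, 8 differed by -0.05 to 0.14 and did not pass. The exception read 4.98, 4.55, 5.23, 4.92 and 4.92 on the positive arrays and 3.85, 3.81, 4.17, 4.21 and 4.16 on the negative ones. It rose by 0.88 ± 0.12 (SE; adjusted p = 0.00158), the largest difference of any probe set of the 37 genes, and by 0.55 ± 0.21 (SE) with the poly-A covariate. Whether it reads another RAN transcript or another gene was not tested.

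Of the 4 measured Ran cycle genes, RAN included, 0 passed in limma, beside 7.39% of all genes. An unadjusted p under 0.05 in limma was reached by 2 of the 4, beside 1610 of all 6765 genes. Of the 4, 3 read lower and RAN was at 0.00, beside 51.0% of all genes reading lower. RANBP1, which helps start GTP hydrolysis, read 4.76, 4.46, 4.62, 4.85 and 4.60 against 4.92, 4.53, 5.06, 5.12 and 5.05. It was lower in 5 of 5 pairs, by -0.28 ± 0.11 (SE), at an adjusted p of 0.180, or 0.0432 with the block. It passed without negative replicate 2, at -0.38, and without both arrays of replicate 2, at -0.33.

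RANBP3, a cofactor of export by XPO1, read 2.37, 2.39, 2.56, 2.46 and 2.55 against 2.69, 2.67, 2.74, 2.62 and 2.58. The fractions did not overlap, though positive replicate 3 came within 0.02 of negative replicate 5, and the difference of -0.19 ± 0.07 (SE) had an adjusted p of 0.117. RANGAP1, the activator of GTP hydrolysis at the pore, read 2.88 ± 0.22 against 3.00 ± 0.31 (SD, n = 5 each).

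For mRNA export, NXF1, the receptor that takes mRNA through the channel, read 3.69, 3.58, 3.71, 4.48 and 4.02 in the positive fraction. The negative values were 4.36, 4.36, 4.45, 4.38 and 4.77. Positive replicate 4 stood at the level of the negative arrays and the remaining positive arrays lay below all of them. NXF1 fell 1.48-fold, by 0.57 ± 0.15 on the log2 scale (SE; adjusted p = 0.0424), and the difference on its second probe set was -0.31, with an adjusted p of 0.0924, or 0.0477 with the block.

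The call of NXF1 held without positive replicate 4, at -0.71 and an adjusted p of 0.00306, and without negative replicate 2, and ended without each of the other 8 arrays, at 0.0651 to 0.104. It ended too without both arrays of replicate 1, 2, 3 or 5, and with quantile normalization and cyclic loess, at 0.0541 and 0.0606. With the poly-A covariate the NXF1 difference was -0.18 ± 0.26, and adding the replicate block gave 0.21 ± 0.30 (SE). Its partner NXT1 read 3.17, 2.97, 2.91, 2.82 and 3.05 against 3.23, 3.01, 3.22, 3.10 and 3.33, lower in 5 of 5 pairs, by -0.19 ± 0.08 (SE) at an adjusted p of 0.220. THOC5 and THOC7, subunits of the THO complex that couples transcription to export, differed by 0.06 and -0.07. The second THOC5 probe set, above background on all 10 arrays, differed the other way, by -0.22, at an adjusted p of 0.0567 in limma. RANBP10, a scaffold protein that shares only the name pattern and is neither a pore subunit nor a carrier, read 2.90, 2.62, 2.69, 2.76 and 2.75 against 2.64, 2.54, 2.62, 2.71 and 2.47, at an adjusted p of 0.306.

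**Figure D3:**
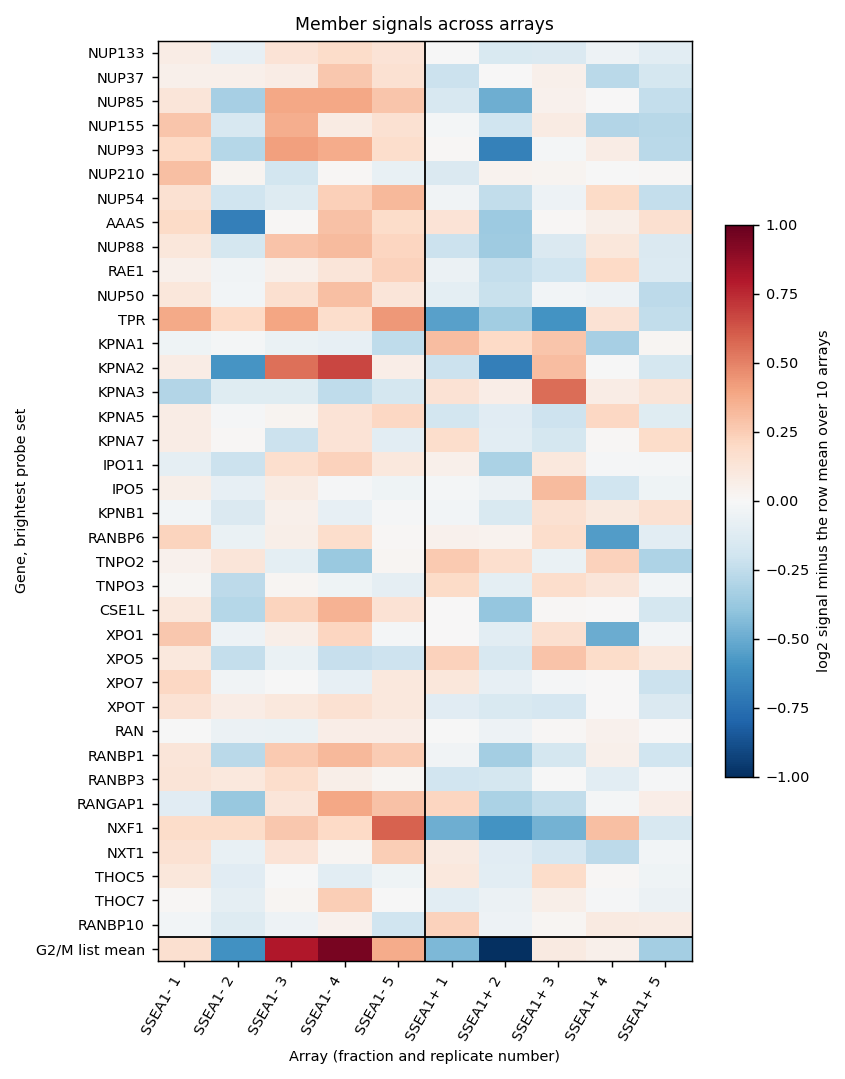
The array profile shows, for each member and for the mean of the 20 G2 and M phase genes, the log2 signal on each array minus the mean of that row over all 10 arrays. Replicate 2 is the lowest array of its fraction for many nucleoporins, KPNA2, CSE1L and RANBP1, as it is for the G2 and M phase mean. TPR is lowest in positive replicate 3 and negative replicate 4. NXF1 is lowest in positive replicate 2, and its negative replicates 1 and 2 both read 4.36.

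Across the arrays many members were lowest in replicate 2. Negative replicate 2 was the lowest negative array for 26 of the 37 genes, or 70.3%, beside 30.5% of all genes, and for 10 of the 12 nucleoporins. In the positive fraction replicate 2 was lowest for 20 of the 37, or 54.1%, beside 26.0% of all genes, and for 7 of the 12 nucleoporins. It was lowest in both fractions for 16 members, or 43.2%, beside 15.5% of all genes. The G2 and M phase mean was likewise lowest in replicate 2, at 3.53 in the positive and 3.94 in the negative fraction. The part of these measures in each other was not tested. Positive replicate 4 was the highest positive array for 10 members, TPR, NXF1, XPOT and NUP88 among them, and the lowest for 7, KPNA1, RANBP6 and XPO1 among them. These shares, 27.0% and 18.9%, lie beside 24.4% and 25.8% of all genes.

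**Figure D4:**
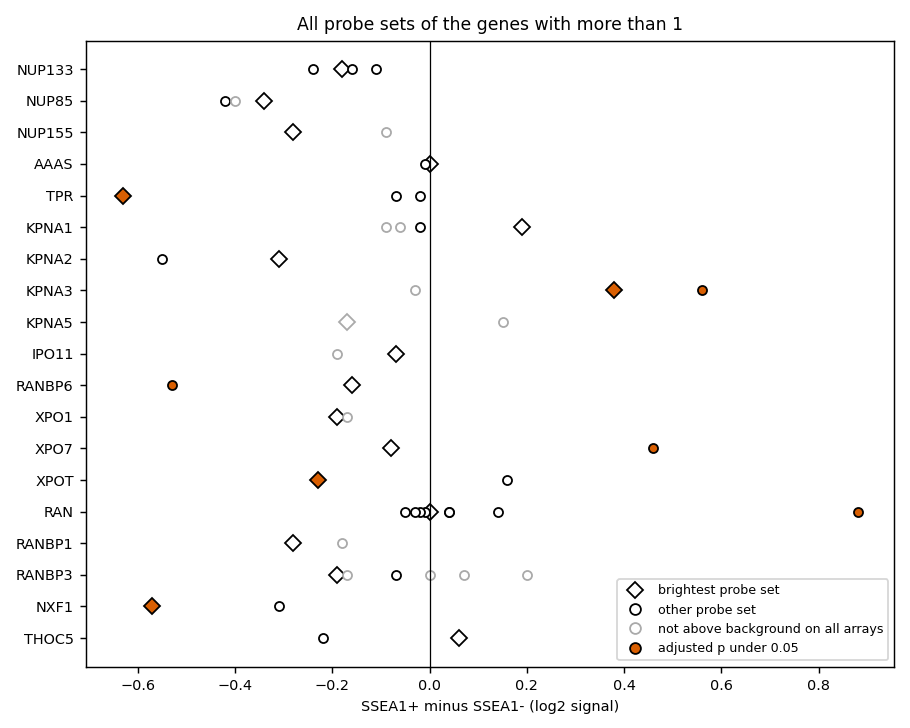
The probe set plot gives the difference between fractions, in log2 signal, for each probe set of the 19 genes that have more than 1, with diamonds for the brightest, grey outlines for probe sets not above background on all arrays, and filled symbols for an adjusted p under 0.05 in limma. RAN, XPO7, RANBP6 and KPNA3 each have a called probe set that is not the brightest one.

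The choice of probe set mattered for several members. The 37 genes have 74 probe sets, 19 genes having more than 1. Of the 74, 8 passed, 4 higher and 4 lower, or 10.8% beside 6% of all 23935 probe sets that are not controls, with 2.5% higher and 3.51% lower. The 4 calls on probe sets other than the brightest were those of RAN, XPO7, KPNA3 and RANBP6, named here after their values were seen.

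Other genes of nuclear transport and of the nuclear envelope that the naming rule leaves out were read from a list of 38 measured genes. Of these, 6 fell and none rose, beside 4.18% of all genes lower and 3.21% higher. In all 28 of the 38, or 73.7%, read lower, beside 51.0% of all genes, and the median was -0.16. SRSF3, an SR protein that recruits NXF1 to mRNA, fell by 0.84 ± 0.09 (SE; adjusted p = 0.000401), and ZC3H14, a poly(A)-binding protein, fell by 0.35. SNUPN, the import adaptor of spliceosomal snRNPs, fell by 0.30 and MAGOH, a core subunit of the exon junction complex, by 0.28. TOR1A, an ATPase of the nuclear envelope and ER lumen, fell by 0.46 ± 0.08 (SE; adjusted p = 0.00525), and SYNE2, a nesprin that links the nucleus to the cytoskeleton, by 0.61 at an adjusted p of 0.0498.

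Each of the 6 was lower in 5 of 5 pairs, beside 16.4% of all genes. As the 6 were picked for being lower on these same arrays, this adds no support. For SYNE2 and MAGOH the fractions overlapped. SRSF3 read 8.04, 7.67, 7.98, 7.86 and 7.90 on the positive arrays and 8.69, 8.47, 8.77, 8.86 and 8.85 on the negative ones, well apart. TOR1A read 4.94, 4.86, 4.94, 4.64 and 4.73 against 5.28, 5.15, 5.32, 5.39 and 5.28, also with no overlap. With the replicate block 12 of the 38 fell, beside 8.62% of all genes, TMPO, PHAX, NMD3, DDX39A, SRSF7 and UBA2 joining. By list, 2 of 14 mRNA export genes, 2 of 8 transport factors, 1 of 4 pore and assembly genes, 1 of 5 lamina and linker genes and 0 of 7 SUMO genes fell in limma, where 1 SUMO gene had an unadjusted p under 0.05. In that fit 4.18% of all genes fell, and 1610 of 6765 had an unadjusted p under 0.05 in limma. The number that fell among the 38 was 3 when positive replicate 2, negative replicate 3 or negative replicate 5 was left out, and 2 when the pair of replicate 1, 3 or 5 was. With the poly-A covariate 0 of the 38 passed in limma, beside 0.0887% of all genes, and 9 reached an unadjusted p under 0.05.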

How the data were processed

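The authors deposited 1 log2 value per probe set and array. The submitters' processing notes name RMA, while its version and settings were not stated in the sources used. Of 24123 probe sets, 10099 had 1 gene symbol in the platform annotation and 198 had several. All 37 members matched a RefSeq gene identifier of Sscrofa11.1, used for names only. Fractions were compared in limma 3.58.1 (R 4.3.3; lmFit, eBayes) on all probe sets, including 188 controls, with Benjamini-Hochberg adjustment. SE are limma's moderated standard errors. The members and gene lists were chosen with earlier results of these data known. Values on every array are given for members that passed and for the 2 members of each role with the smallest p; KPNA2, RAN and second probe sets were added after their values were seen.

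Replicate numbers were treated as pairs in an alternative: the design text tells of 5 replicate sorts that yielded 5 fractions of each kind, without saying that a number marks 1 sort, and deviations of same-numbered arrays correlated at 0.212, 0.580, 0.353, 0.122 and 0.235. For both arrays of replicate 4 and the negative array of replicate 5 the best correlation with another number was higher, up to 0.314. Other alternatives were a random block, array weights, a trended and robust eBayes, median centring, quantile normalization, cyclic loess, a level filter, no controls, the mean over probe sets, other thresholds, the poly-A covariate and leaving out arrays or pairs. The fit was tested on simulated data first. No sequences are shown, since the tables used here hold none for these genes.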

Additional observations from a re-analysis of the deposited data

Results flagged for a closer look

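In 5 of the 74 groups of 5 values that were checked (37 genes in each of 2 fractions), 1 array stood apart from the others by more than Dixon's 95% limit; chance alone flags about 1 in 20 groups. KPNA3 read 5.03 on SSEA-1 positive replicate 3, with the next positive value at 4.62. NXF1 read 4.77 on negative replicate 5, with the next at 4.45. KPNA1 read 6.16 on negative replicate 5, below 6.33. NUP210 read 0.49 on positive replicate 1, below 0.63, and KPNA5 read 0.42 on positive replicate 4, above 0.10, both near background.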

How the results depend on the processing

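The median over the 37 genes stayed below 0 under all settings run, from -0.22 to -0.12, within 1 SD of the 5 pair medians (0.09). The number of called members was 12 with the fixed replicate block, beside 14.3% of all genes, and 2 with cyclic loess and with the mean over probe sets. At a threshold of 0.01 in limma it was 0, with 15 at an unadjusted p under 0.05, beside 1610 of all 6765 genes. Under the poly-A covariate it was 0, with 10 members at that unadjusted level, and 0 again once the block was added, with 5. It ranged from 0 to 9 in the leave-outs. The number of called companion genes was 12 with the fixed and with the random replicate block, 3 with the mean over probe sets, 2 at a threshold of 0.01 and 11 at 0.1, 0 with the poly-A covariate in limma, alone (9 at an unadjusted p under 0.05) or joined to the block (8), and 2 to 9 in the leave-outs. Over all genes, calls were counted only in limma without block, with the fixed replicate block and with the poly-A covariate. The other counts therefore cannot show whether these genes moved more than other genes did. Direction turned with the poly-A covariate for TNPO3 at -0.10, XPO5 at -0.01, KPNA1 at -0.12 and THOC5 at -0.15. With the block added to it, TPR at 0.15, NXF1 at 0.21, RAE1 at 0.18, KPNA5 at 0.09, XPO7 at 0.03, KPNA1 at -0.32, KPNA7 at -0.08 and THOC5 at -0.01 were turned. The mean over probe sets also turned XPO7 and THOC5, whose second probe sets differed by 0.46 and -0.22. NUP210 turned in leave-outs of replicate 1, at 0.00 to 0.07, and ranged from -0.09 to 0.07 over all leave-outs. The cause was not tested. The replicate block changed no call of a member beyond those named above and in the comparison by role. With 5 arrays a fraction, SE of 0.06 to 0.22 limit what can be told apart among the 37 genes.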
